A study of Mus musculus with 4 samples.

Results

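Outer hair cells (OHCs) amplify sound in the cochlea through the motor protein prestin, which is encoded by *Slc26a5*. In the toxin receptor-mediated conditional cell knockout (TRECK) method, cells that carry the human diphtheria toxin (DT) receptor die after DT is given, whereas mouse cells without it bind the toxin poorly. A transcript made mainly in the depleted cells falls in RNA of the whole tissue, and so does a transcript that surviving cells make less of.

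The values of 7 genes were examined, out of 30028 gene names on the array. The protein-coding ones are *Ppp1r17*, *Pcp4*, *Acbd7*, *Elovl2* and *Ackr4*, and the other names, *1700016D02Rik* and *9530056K15Rik*, are RIKEN cDNA clones. They were chosen by measured values, because in *Prestin*-*hDTR* mice given DT a probe of each was lower than in every other group by at least 2-fold, and because no established role in hearing is known for them. Their fall in that group is therefore a description of the choice and supports nothing. All 3 controls entered the choice through the lowest of them, so their spread is not free of it, whereas the values of related genes and the sequence of the probes were not used.

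Cochlear RNA of 4 groups was measured, with 1 array for each. The groups were untreated wild-type mice, wild-type mice given 50 μg/kg of DT 7 days before dissection, untreated *Prestin*-*hDTR* mice (called OHC-TRECK in the labels) and *Prestin*-*hDTR* mice given the same dose of DT. All mice were on the B6J background and 5 weeks of age, and RNA of males and females was pooled. The *hDTR* transgene was driven by the prestin promoter in 1 transgenic line, so an effect of its insertion cannot be told apart from that of the receptor. The first 3 groups serve as controls. No group has a replicate, so no difference has a replicate check and no p-value is given.

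Signals are the background-subtracted intensities of the scanner files, divided by the 75th percentile of each array and given as log2. A probe that the scanner software did not mark as well above background was raised to the lowest signal that was, so that its fold is a lower bound. The 8 probes of the 7 genes were well above background on all 4 arrays, and none of their values is a bound. The software's own error for these probes lay between 10% and 21.4% of the signal. Repeated spots of the same probe had a median SD between 0.061 and 0.071 log2 on the 4 arrays and this holds no variation from mouse to mouse.

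All 8 probes, and so all 7 genes, were lowered 2-fold or more against each control array. The choice fixes this for a probe of each gene, so only the call of a second probe of *Ackr4* was not fixed. Of 25071 probes compared, 65 were lowered in this way, or 0.259%, and nothing is read from the difference. Against a single control array, the lowered share of all probes was 1.95% for untreated wild-type, 1.83% for DT-treated wild-type and 1.35% for untreated *Prestin*-*hDTR* mice. When each control array was set against its 3 counterparts in the same way, the lowered share was 0.0189% for untreated wild-type, 0.008% for DT-treated wild-type and 0.119% for untreated *Prestin*-*hDTR* mice. The lowest signal, to which dim probes were raised, was -5.93, -5.48 and -6.39 on these arrays and -5.44 for DT-treated *Prestin*-*hDTR* mice. The part of this unequal limit in the shares was not tested. The array of DT-treated *Prestin*-*hDTR* mice also had 271 probes raised 2-fold or more against each other array, which is 1.08%.

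*Ppp1r17* encodes a protein first described in cerebellar Purkinje cells that inhibits protein phosphatases once cGMP-dependent kinase has phosphorylated it. Its probe (chr6:55982358-55982417, mm9) gave -2.42 (untreated) and -2.60 (DT) for the wild-type groups, and -2.48 (untreated) and -4.46 (DT) for the *Prestin*-*hDTR* groups. The controls lay within 0.18 of each other, and the fourth array lay 1.86 below the lowest of them. This gap was 10.2 times the range of the controls, the highest ratio among the 8 probes in this processing, though not with the normexp background correction. The fall was 4.11-fold, 3.62-fold and 3.93-fold against the controls in the order given. The signal that remained was 25.7% of the mean of the controls and lay 1.98-fold above the lowest signal counted as well above background on that array.

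*Pcp4* encodes a small protein with an IQ motif that binds calmodulin and speeds its exchange of calcium, and it is also known from Purkinje cells. Its probe (chr16:96747241-96747300) gave 3.51, 3.21 and 3.27 in the controls, in the same order, and 2.20 in DT-treated *Prestin*-*hDTR* mice. The control values spanned 0.30, and the fall was 2.48-fold, 2.02-fold and 2.10-fold. By the ratio to the control mean it was also the smallest fall of the 7 genes, with 45.5% remaining, and it stood close to the threshold. When the arrays were scaled by their medians, the smallest fall of *Pcp4* was 1.98-fold.

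*Acbd7* encodes a small acyl-CoA binding protein of the same family as the diazepam binding inhibitor Dbi. Its probe (chr2:3258185-3258244) gave 1.61, 1.63 and 1.75 in the controls and 0.52 in DT-treated *Prestin*-*hDTR* mice. The range of the controls, 0.14, was the smallest of the 8 probes and just under the median of 0.15 over the 23688 probes well above background on all 4 arrays. When the arrays were scaled by their medians, this range was 0.209, wider than the 0.155 of *Ppp1r17*. The fall was 2.14-fold, 2.17-fold and 2.35-fold, leaving 45.1% of the control mean. *Acbd7* and *Pcp4* thus kept a similar share of their signal, and both were measured far above background, by at least 62.2-fold on the array of DT-treated *Prestin*-*hDTR* mice.

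*Elovl2* encodes an elongase of very long polyunsaturated fatty acids. Its probe (chr13:41277884-41277943) gave -3.32, -3.80 and -3.47 in the controls and -4.91 in DT-treated *Prestin*-*hDTR* mice. The DT-treated wild-type array was the lowest control, and the fall against it, 2.17-fold, was smaller than the 3.01-fold against untreated wild-type and the 2.72-fold against untreated *Prestin*-*hDTR* mice. The signal of *Elovl2* in DT-treated *Prestin*-*hDTR* mice was only 1.44-fold above the lowest signal counted as well above background. With the normexp background correction, which adds an offset of 50, in place of that of the scanner software, its smallest fall was 1.68-fold.

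*Ackr4* encodes an atypical chemokine receptor that takes up and degrades Ccl19, Ccl21 and Ccl25 without signalling through G proteins, and it was the only one of the 7 genes with more than 1 probe. The probe at chr9:104000864-104000923 gave -4.12, -3.40 and -3.82 in the controls and -5.17 in DT-treated *Prestin*-*hDTR* mice. The probe at chr9:104000628-104000688, which lies 176 bases away, gave -2.86, -2.30 and -2.72 in the controls and -3.87 in DT-treated *Prestin*-*hDTR* mice. Both probes ordered the 4 arrays alike, with DT-treated wild-type highest, then untreated *Prestin*-*hDTR*, then untreated wild-type, and the DT-treated *Prestin*-*hDTR* group last. The controls spanned 0.71 and 0.56 at these probes, the widest ranges among the 8, and the gaps below the lowest control, 1.05 and 1.01, were only 1.47 and 1.81 times those ranges. The smallest falls, 2.07-fold and 2.02-fold, were both against untreated wild-type mice. They went below 2-fold with the normexp correction (1.49-fold and 1.83-fold), median scaling (1.98-fold and 1.93-fold) and quantile normalization (1.90-fold and 1.96-fold), and the second of them with the deposited table of scaled values (1.99-fold).

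*1700016D02Rik* is described in the array files as an unclassifiable transcript of adult testis, and it had the largest fall. Its probe (chr14:42615426-42615485) gave -1.35, -1.14 and -0.84 in the controls and -3.71 in DT-treated *Prestin*-*hDTR* mice. The controls spanned 0.51, whereas the gap to the fourth array was 2.35. The fall was 5.11-fold, 5.93-fold and 7.29-fold, leaving 16.4% of the control mean. The untreated *Prestin*-*hDTR* array was the highest of the controls here, 0.51 above untreated wild-type.

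*9530056K15Rik* is described as an unclassifiable transcript of neonatal cerebellum. Its probe (chr5:144159864-144159923) gave -2.93, -3.37 and -3.33 in the controls and -4.61 in DT-treated *Prestin*-*hDTR* mice. The fall was 3.19-fold, 2.36-fold and 2.42-fold, and the controls spanned 0.43, so the gap of 1.24 was 2.87 times their range. With the normexp correction the smallest fall was 1.82-fold.

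**Figure D1:**
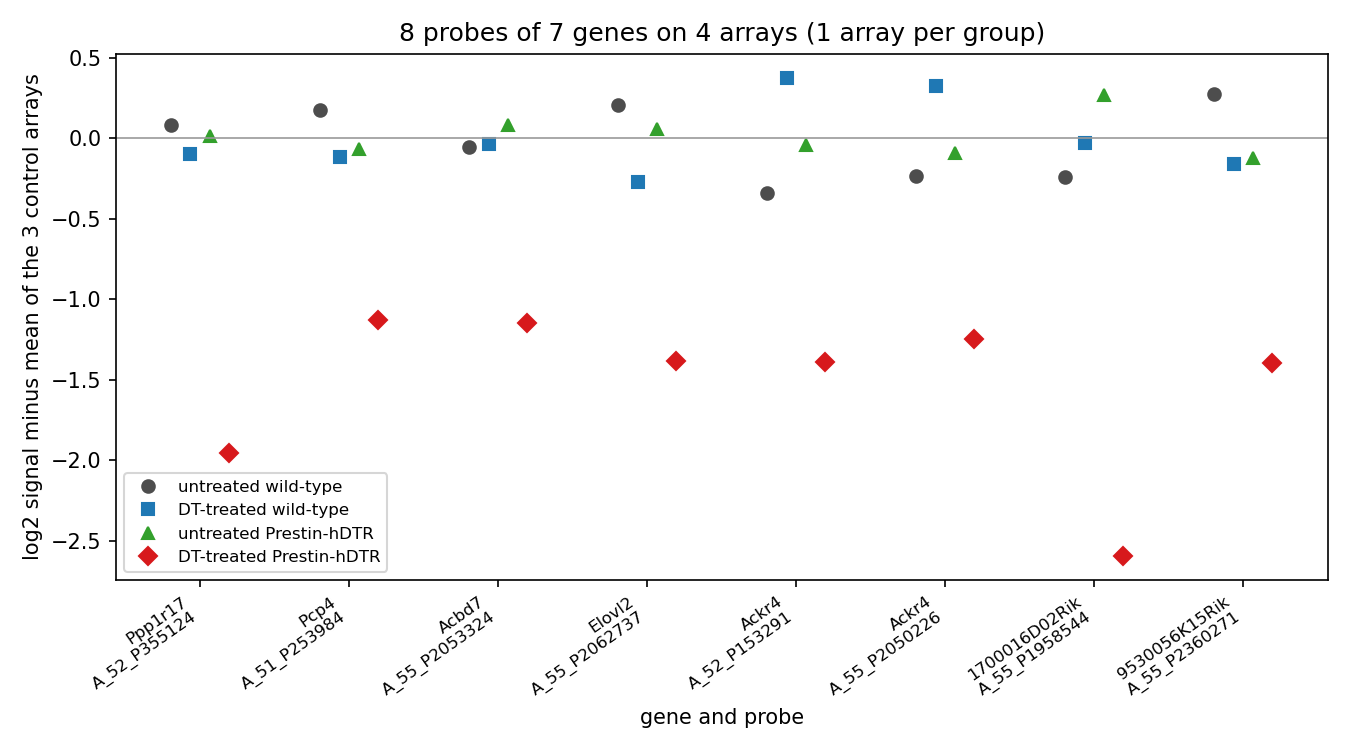
Each point is the normalized log2 signal of 1 probe on 1 array, minus the mean of the 3 control arrays for that probe, with the 8 probes along the horizontal axis and 1 array per group. DT-treated *Prestin*-*hDTR* lies between -1.13 and -2.59 and below every control, and the controls lie closest together for *Acbd7* and *Ppp1r17* and farthest apart for the 2 *Ackr4* probes.

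The 7 genes thus differed in how far the controls agreed among themselves. For 7 of the 8 probes the range of the controls was above the median over all probes well above background on the 4 arrays. A range at least as wide as that of *Acbd7* was found in 52.8% of those probes, and one as wide as that of *Ppp1r17* in 37.7%. For *Pcp4* the share was 16.7%, for *9530056K15Rik* 8.26%, for *Elovl2* 6.94% and for *1700016D02Rik* 6.07%. The 2 *Ackr4* probes came last, with 5.30% and 3.39%.

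By the ratio of the gap to the range of the controls, *Ppp1r17* stood first among the 8 probes and *Acbd7* second at 7.86. *1700016D02Rik* followed with 4.58 and *Pcp4* with 3.44, ahead of *9530056K15Rik* and of *Elovl2* at 2.35. With the normexp correction, however, *Acbd7* stood above *Ppp1r17*. Its gap was 1.12 and its range 0.10, against 1.35 and 0.14 for *Ppp1r17*. With median scaling the gap of *Acbd7* was 1.03 and its range 0.21, which is a lower ratio. Of the 47 probes that were lowered against each control and well above background on all 4 arrays, *Ppp1r17* ranked 12 by this ratio, *Acbd7* 15 and *1700016D02Rik* 27. The others ranked between 34 and 44. *Ppp1r17*, *Acbd7* and *1700016D02Rik* were also the genes whose smallest fall stayed at 2-fold or more in each of the 5 alternative ways of processing that could change it.

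**Figure D2:**
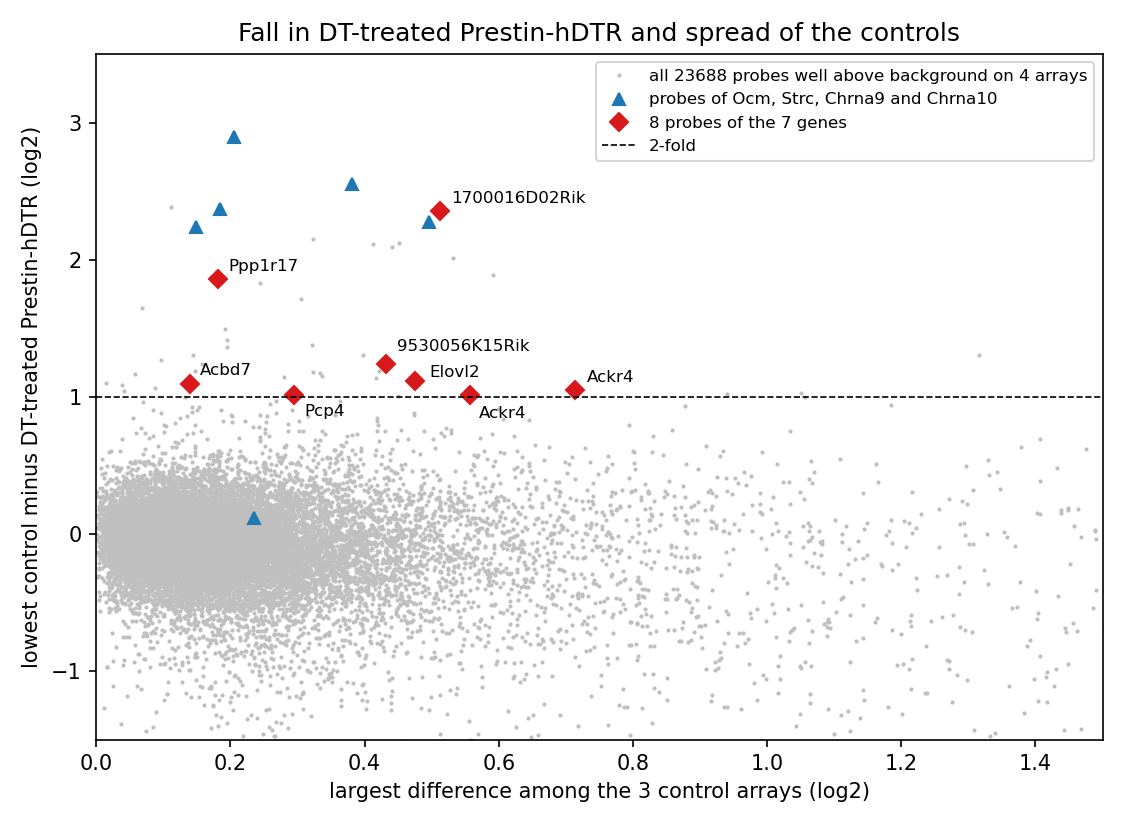
For each of the 23688 probes well above background on 4 arrays, the horizontal axis gives the largest log2 difference among the 3 control arrays and the vertical axis the lowest control minus DT-treated *Prestin*-*hDTR* in log2, with the dashed line at 2-fold; 242 probes lie outside the axes. *Ppp1r17* and *1700016D02Rik* (red) stand apart at gaps of 1.86 and 2.35, the other 6 red points lie at 1.01 to 1.24, and the blue triangle near 0 is the second probe of *Chrna9*.

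DT itself was compared in wild-type mice, which lack the transgene, and the choice put no condition on this contrast, although it used both arrays. *Ackr4* was higher after DT in wild-type mice, by 0.71 and 0.56 at its probes, and *1700016D02Rik* was higher by 0.21. *Elovl2* was lower by 0.47 (-3.32 before and -3.80 after), *9530056K15Rik* by 0.43, *Pcp4* by 0.30 and *Ppp1r17* by 0.18, and *Acbd7* was higher by 0.019. None of these differences reached 2-fold, and their directions were mixed, with 4 of 8 probes higher. Between the untreated genotypes, the probes differed by at most 0.51, the value of *1700016D02Rik*, and *Ppp1r17* differed by only 0.067 (-2.42 and -2.48).

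The label of OHC loss was checked against marker genes. Of 12 OHC markers with a measured probe, 6 were lowered 2-fold or more against each control, and 11 were lower than every control, as were 6835 of 21961 genes in all. *Ocm*, which encodes oncomodulin, gave 4.36, 4.21 and 4.35 in the controls and 1.97 in DT-treated *Prestin*-*hDTR* mice, or 19.9% of the control mean. *Strc*, which encodes stereocilin of the hair bundle, kept 12.3%, *Chrna10* 14.6% and *Chrna9* 16.8%, although a second, dimmer probe of *Chrna9* kept 86.1%. *Slc26a5* itself was dim, with -4.89, -4.47 and -5.06 in the controls, and after DT in *Prestin*-*hDTR* mice it did not exceed background by enough to be counted, so it was lower by at least 1.31-fold to 1.96-fold. Fewer OHCs and less RNA per cell cannot be told apart in RNA of the whole cochlea.

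Markers of other cells moved on the same array. The summed signal of the OHC markers, led by the *Ocm* probe, was 30.5 (untreated) and 28.5 (DT) for wild-type, then 30.9 (untreated) and 10.4 (DT) for *Prestin*-*hDTR*, on the scale of the 75th percentile. The fall of this sum is mainly that of the *Ocm* probe, and signals of different probes do not rank abundance. Of 10 general hair cell markers, *Pou4f3*, *Gfi1* and *Lhx3* were lowered 2-fold or more, and the sum, led by *Pvalb*, was 40.6, 34.0, 37.1 and 27.4 in the same order. Of 8 inner hair cell markers, 0 were lowered 2-fold and 6 were below every control (6835 of 21961 over all genes), with a median ratio of -0.38 to the control mean and sums of 12.2, 13.7, 12.5 and 11.9, led by *Kcnj13*. The part of these markers' cells in the fall of the 7 genes was not tested.

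Of 7 macrophage markers, *Cd68* and *Adgre1* were raised 2-fold or more against each control and the other 5 were not, with a median ratio of 0.81 and sums, led by *Csf1r*, of 13.9, 13, 12.1 and 20.8. By comparison, 1.24% of all genes with 1 probe each were raised and 0.291% were lowered, with a median of 0.0067. Bone markers were lower than every control for 5 of 6 genes (6835 of 21961 over all genes), with a median of -0.42 and sums, led by *Bglap*, of 15.9, 20.2, 12.6 and 9.11, although 0 were lowered 2-fold against each control. Neutrophil markers separated the genotypes, with sums, led by *S100a9*, of 36.1 and 56.0 in wild-type and 13 and 21.2 in *Prestin*-*hDTR* mice. The part of macrophages, bone and blood cells in the results was not tested.

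*Ppp1r17*, *Pcp4* and the clone *9530056K15Rik* have a known source in the cerebellum, so markers of Purkinje cells and cerebellum were examined beside them. Of 10 such genes, 8 were measured, 0 of these were lowered 2-fold, and 5 were below every control (6835 of 21961 over all genes), with a median ratio of -0.28. Their sum, led by *Itpr1*, was 19.7, 19.7, 18.7 and 20 in the order of the groups. This sum is mainly that of the *Itpr1* probe (3.97, 4.01, 3.95 and 4.08 in log2), so it says little of the other genes. *Pcp2*, the marker most confined to Purkinje cells, gave -2.00, -2.43, -2.62 and -2.65, and *Car8* gave -4.42, -4.38, -4.51 and -4.29. *Gad1*, with -4.11, -3.33, -3.10 and -4.37, and *Cbln1*, with -1.76, -2.26, -1.87 and -2.40, were lowest in DT-treated *Prestin*-*hDTR* mice, and the part of these genes in the fall of *Ppp1r17* and *Pcp4* was not tested. On all 4 arrays *Gabra6* was too dim to be counted.

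Of the remaining marker lists, none had a gene lowered or raised 2-fold or more against each control. The median ratios were 0.14 over 10 supporting cell markers, -0.18 over 10 spiral ganglion neuron markers, 0.14 over 5 myelin and Schwann cell markers and 0.20 over 7 markers of the stria vascularis. They were 0.11 over 6 erythroid markers, -0.47 over 6 neutrophil markers, -0.046 over 4 measured skeletal muscle markers and -0.079 over 5 markers of motile cilia. The 7 genes, with a median ratio of -1.39 over their probes, lay outside these medians, as their choice fixes.

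Genes related to the 5 protein-coding genes by family or function were examined too, and lists of this length are expected to hold few lowered genes at a share of 0.291% over all genes. Among 21 subunits and inhibitors of protein phosphatases 1 and 2A, the enzymes that *Ppp1r17* acts on, 0 were lowered and 0 raised 2-fold or more, with a median ratio of 0.042. The catalytic subunit gene *Ppp1ca* gave 4.06, 4.04, 4.07 and 4.04 in the 4 groups, and *Ppp2ca* gave 2.28, 2.26, 2.26 and 2.45. *Ppp1r1b*, which encodes the inhibitor DARPP-32, gave 4.41, 4.63, 4.54 and 4.73. The lowest ratios in this list were those of *Ppp1r14a* (-0.49) and *Ppp2r1b* (-0.46), and both were lower than every control.

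Among 19 genes of calmodulin, its small IQ proteins and its targets, set beside *Pcp4*, 0 were lowered and 1 was raised, with a median of -0.026. *Pcp4l1*, the closest relative of *Pcp4*, gave 2.01, 1.64, 1.81 and 1.75, a value in DT-treated *Prestin*-*hDTR* mice within the range of the controls. The raised gene was *Gap43*, which encodes a calmodulin-binding protein of growing axons, with -2.64, -3.05, -3.01 and -1.42. *Camk2b* had the lowest ratio, -0.53, with 1.03, 0.87 and 0.96 in the controls and 0.42 in DT-treated *Prestin*-*hDTR* mice, and *Camk4* followed with -0.44.

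Of the 7 acyl-CoA binding proteins related to *Acbd7*, 0 were lowered or raised, and the median ratio was 0.014. *Dbi*, the closest relative of *Acbd7* among them, gave 5.89, 5.79, 5.94 and 6.11, and was thus slightly higher in DT-treated *Prestin*-*hDTR* mice, where *Acbd7* was lower. Of 18 genes of fatty acid elongation and desaturation, set beside *Elovl2*, 0 were lowered or raised, with a median of 0.092. *Elovl5*, the elongase whose substrates overlap with those of *Elovl2*, gave 2.77, 2.63, 2.63 and 2.65, and *Elovl4* gave 0.96, 0.92, 1.01 and 0.86. *Fads6* (0.79), *Fads2* (0.38) and *Elovl1* (0.37) had the highest ratios to the control mean in this list, and *Acsl6* had the lowest, -0.33.

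Of 12 atypical chemokine receptors, ligands of *Ackr4* and their other receptors, 9 were measured, 0 were lowered or raised, and the median ratio was -0.16. The ligand gene *Ccl19* gave -0.54, -0.83, -0.69 and -0.94, and *Ccl25* gave -0.38, -0.38, -0.29 and -0.51. *Ackr3* gave 1.51, 1.72 and 1.71 in the controls and 2.16 in DT-treated *Prestin*-*hDTR* mice, which is above every control but by less than 2-fold. *Ccr7*, which shares ligands with *Ackr4*, gave -4.88, -3.87, -4.12 and -4.58, and its order among the controls was that of *Ackr4*, with DT-treated wild-type highest and untreated wild-type lowest. The lowest ratio was that of *Ccr9*, -0.45. The genes *Ccl21a*, *Ccl21b* and *Ccl21c* were not found by name on the array.

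For each gene, the most similar profiles over the 4 arrays were taken as those with the smallest root mean square difference after each was centred on its mean, among 20558 probes with a RefSeq gene name, which left out clones and unnamed probes, and well above background on all arrays. Since the fall dominates such a profile, genes with a like fall were bound to come first. For *1700016D02Rik*, the genes were *Chrna9* (0.060 log2), *Chrna10* (0.10) and *Myo15* (0.20), of which the first 2 encode the acetylcholine receptor of hair cells and the last a myosin of stereocilia. For *Ppp1r17*, they were *Gm9732*, named *Gm3161* in the files (0.16), *Ocm* (0.16) and *Barhl1* (0.18). This *Barhl1* probe had a ratio of -1.90 to the control mean, whereas the brighter probe, which stands in the list of hair cell markers, had -0.023. For *Acbd7*, they were *Lmod3* (0.035), *Clrn2* (0.062) and *Klhl14* (0.068).

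For *Pcp4*, the most similar genes were *Sh3gl3* (0.024), *Emilin3* (0.027) and *Zmat4* (0.079), and none of these reached 2-fold against each control. For *Elovl2*, they were *Tcap* (0.12), *Irak2* (0.13) and *Sh3gl3* (0.14), and for *9530056K15Rik* they were *Elovl2* (0.11), *Tcap* (0.13) and *Pcp4* (0.13). For the brighter *Ackr4* probe, they were *Slc10a6* (0.062), *Col8a2* (0.089) and *Nrxn3* (0.11). Over all 23688 probes, with or without such a name, *9530056K15Rik* came first for *Elovl2* (0.11), and *NAP114173-1* took the place of *Myo15* for *1700016D02Rik* (0.11). An unnamed probe at chr14:43542015-43542074 came first for *Ppp1r17* (0.15), and 2 probes without a RefSeq name came next after *Lmod3* for *Acbd7* (0.053 and 0.054). The first 3 of *Pcp4*, *Ackr4* and *9530056K15Rik* stayed the same.

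The nearest measured gene with a RefSeq name on each side of each of the 7 genes was read from the probe positions. Of these 14 neighbours, 0 were lowered 2-fold or more against each control, and 7 were well above background on all 4 arrays. Of these 7, 4 lay within 0.3 log2 of the control mean and 3 were lower than every control, with ratios between -0.70 and -0.32, beside 6835 of 21961 genes in all. The lowest was *Grid2ip*, 6.39 kb from the *9530056K15Rik* probe, with -4.17, -4.62, -4.05 and -4.98 and a control range of 0.57. The others were *Dscam* (-0.37), beside *Pcp4*, and *Smim13* (-0.32), beside *Elovl2*. Whether *Grid2ip* and *9530056K15Rik* fell together for a shared reason was not tested. The neighbours of *Ppp1r17* and *1700016D02Rik* were too dim to be compared, each being well above background on at most 2 arrays.

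The stretch of chromosome 14 that holds *1700016D02Rik* contained further lowered probes, which were singled out after their values were seen. The study mapped the transgene insertion to this chromosome too. Its distance from the stretch was not measured here, and its part in these values was not tested. The transcript *NAP114173-1* (chr14:42737009-42737068), 122 kb from *1700016D02Rik*, gave -0.995, -0.76 and -0.54 in the controls and -3.12 in DT-treated *Prestin*-*hDTR* mice. Of 3 probes for *Gm3161*, the one at chr14:43967961-43968020 gave -2.31, -2.06, -2.07 and -4.14, the one at chr14:43967966-43968025 gave -1.35, -1.28, -1.34 and -2.31, and the third gave -3.59, -3.71 and -3.81 in the controls and fell to the floor, by at least 3.10-fold. The second of them was lowered 1.94-fold to 2.04-fold and so was not called. A probe without a gene name at chr14:43542015-43542074 gave -3.31, -3.25, -3.32 and -4.97. Of 15 probes measured on at least 1 array over these 1.35 Mb, 5 were lowered against each control, among them *1700016D02Rik*. Over all probes compared it was 65 of 25071, or 0.259%. The stretch was drawn to start and end at lowered probes, so nothing is read from its count. Of all 25 probes there, 6 were well above background on 4 arrays.

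The probe of *1700016D02Rik* was the only one of the 8 with a near copy among the probes of the array, found by sequence search, and the copy was *NAP114173-1*. Over 56 aligned bases they differed at 4, or 92.9% identity, with the differences G19C, A42C, G45A and A52G, counted from the 5′ end of the *1700016D02Rik* probe and written with its base first. The last 30 bases of that probe and the aligned bases of the other are given to show how close they are, with the differing bases in capitals.
1700016D02Rik: attgcttgacaAtgGattgtgAactacaca
NAP114173-1: attgcttgacaCtgAattgtgGacta
A transcript of either locus could bind both probes, so the values of *1700016D02Rik* and *NAP114173-1* may not be separate measurements, which was not tested. The other 7 probes had no near copy on the array.

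All 8 probes are 60 bases long, with a GC content of 35% to 43.3%, against a median of 41.7% over all probes. The polyadenylation hexamer AATAAA, which lies near the end of many transcripts, was found in 1 of the 8, that of *9530056K15Rik*, and in 12.6% of all probes. It stands at bases 43 to 48, in capitals in the last 30 bases of the probe.
9530056K15Rik: ctcctttttacaAATAAAagtctgaaactc
The probes of the 5 protein-coding genes lack it. Whether a probe lies in an exon or an untranslated region was not analysed here.

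For the genes that fell together, the promoters were compared. RefSeq promoters (GRCm38.p6, 250 bases before the start) were matched by symbol for *Acbd7*, *Ackr4*, *Elovl2* (with 2 starts) and *Pcp4*, and the promoter table had no entry for *Ppp1r17* or the RIKEN clones. The GC content was 57.6% for *Acbd7*, 45.2% for *Ackr4* and 46.8% for *Pcp4*, against a median of 52.4% over 32851 promoters, and 87.2% and 79.6% for *Elovl2*. The promoters of these genes thus ranged from below to far above the median, and they do not share a base composition. In the first *Elovl2* promoter there were 49 CG pairs, against 3 for *Pcp4*, 5 for *Ackr4* and 9 for *Acbd7*.

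Both strands were searched for 5 motifs chosen after the values were seen. The homeodomain motif TAATTA was found in 1 of the 5 promoters and in 4.84% of all. The letters of a TATA box, TATAAA, were found in 1 of 5 and in 12.4% of all, and both matches were in *Ackr4*. This TATAAA lies nearer the far end of the printed sequence than the start, so only its letters are meant by the name. The Gfi1 core AATCAC (9.14% of all), the E-box CAGCTG (13%) and the RFX site GTTGCC (10.4%) were found in 0 of the 5. The *Ackr4* promoter (chr9:104126644-104126893, minus strand) is given because it holds both motifs found, in capitals.
Ackr4: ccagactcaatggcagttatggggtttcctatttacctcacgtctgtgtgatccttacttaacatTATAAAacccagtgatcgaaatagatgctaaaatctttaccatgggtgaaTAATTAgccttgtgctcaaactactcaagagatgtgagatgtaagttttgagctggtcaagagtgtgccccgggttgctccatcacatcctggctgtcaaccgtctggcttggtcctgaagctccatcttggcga
A match of these letters is a description and not a binding site.

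At the threshold itself, the probes just inside were those of *Gm5464*, whose smallest fall was 2.01-fold, *Mei1* with 2.01-fold and the brighter *Ackr4* probe with 2.02-fold. Just outside stood *5430431A17Rik*, *Sh3gl3* with 1.997-fold and *Gpr137c* with 1.995-fold. *Ackr4* and *Pcp4* lay close to these values, whereas *1700016D02Rik* ranked 6 and *Ppp1r17* 16 of the 65 lowered probes by their smallest fall. *9530056K15Rik* ranked 35, *Elovl2* 51, *Acbd7* 54, the *Ackr4* probes 58 and 63 and *Pcp4* 62.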

How the data were processed

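Cy3-labelled cochlear RNA was measured on 1 Agilent array per group. The authors deposited the output of Agilent Feature Extraction 11.5.1.1, in which the intensity is linear, background-subtracted and not scaled between arrays. Their deposited table gives this intensity over 1 constant per array, neither log2 nor centred, with column medians of 0.0865, 0.0853, 0.0828 and 0.0850.

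Control spots and 149 to 228 outlier spots per array were left out, and 0 spots were saturated. Spots were averaged per probe, with a flag kept when over 0.5 of them had it, and divided by the 75th percentile of 39429 probes. On the 4 arrays 62.2% to 70.6% of probes were well above background. Each comparison required this on 1 array or both, and 2-fold was called. Over the 19 lists (5 of related genes, 14 of markers), the probe with the highest mean stood for a gene. The 7 genes and the lists were chosen with earlier results of these data known. Besides them, the text names the 3 most similar genes and the 3 probes on each side of the threshold, and marks any chosen after their values were seen. Some genes that enter these counts are not reported here by name. Of the 7 names, 5 matched the RefSeq gene table by symbol, and 4 had an entry in the promoter table. Near copies were searched with blastn.

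Alternatives changed the scaling, the floor, the filter, the correction for background (normexp, offset 50), the source, the outlier spots or the fold (1.5). The scripts were tested on simulated data. Software was Python 3.11.15 with numpy 2.4.6 and pandas 2.3.3, blastn 2.17.0 and limma 3.58.1 in R 4.3.3.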

Additional observations from a re-analysis of the deposited data

Results flagged for a closer look

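For 4 of the 8 probes, the difference between DT-treated and untreated mice had opposite signs in the 2 genotypes. In wild-type mice *Ackr4* was higher after DT by 0.71 at 1 probe and 0.56 at the other on the log2 scale, whereas in *Prestin*-*hDTR* mice the change was -1.35 and -1.16. *1700016D02Rik* changed by 0.21 in wild-type and by -2.87 in *Prestin*-*hDTR* mice. *Acbd7* changed by 0.019 in wild-type, which is less than the SD of repeated spots, and by -1.24 in *Prestin*-*hDTR* mice. With 1 array per group the difference between the genotypes was not tested, and the change in *Prestin*-*hDTR* mice is among the values that chose these genes.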

How the results depend on the processing

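Leaving out the floor, changing the filter or lowering the cut to 1.5-fold could lose no call of the 8 probes, since all were well above background on 4 arrays, and no outlier spot was theirs. With the normexp correction 4 probes and 4 genes were lowered, and with median scaling 5 probes. Quantile normalization left 6 probes and the deposited scaled values 7. Over all probes, the 65 lowered became 140 without a floor, 35 with normexp and 285 at 1.5-fold, and between 47 and 65 with the others. The median ratio of the 8 probes to the control mean was -1.10 with normexp and the median range of the controls 0.37, against -1.39 and 0.45. Every probe stayed below every control: the smallest gap, 0.58, was that of 1 *Ackr4* probe with normexp. Of 40 ratios to the control mean in the 5 alternatives that could change them, 7 moved by more than the SD of repeated spots, 6 of them with normexp, and 0 changed sign. The normexp correction adds an offset of 50 to every intensity, which lowers the folds of dim probes more than those of bright ones. In DT-treated *Prestin*-*hDTR* mice the scanner intensities of the 6 probes that moved with normexp were 86.8 to 239. They were 14314 for *Pcp4* and 4461 for *Acbd7*, whose ratios with normexp were -1.14 and -1.16. How much of the smaller falls comes from the offset was not tested. After DT in *Prestin*-*hDTR* mice, the signals of *Ppp1r17*, *Elovl2*, *9530056K15Rik* and *Ackr4* lay 1.21-fold to 2.97-fold above the floor. That of *1700016D02Rik* lay 3.33-fold above it. Whether nearness to the floor affects these falls was not tested. No paired analysis was possible because each group has 1 array.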
